A study of Mus musculus with 12 samples.

Results

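Whether the transcriptional response to interferon beta (IFNβ) differed between cells with and without the kinases Ulk1 and Ulk2 was examined over all 12 arrays of the study. For each gene, the change with IFNβ in wild-type (WT) cells was subtracted from the change in double knockout (DKO) cells, and this difference of 2 changes is called the interaction. It was computed for 8898 genes, those detected (detection p under 0.01) on at least 3 arrays, out of 19057 genes with a named probe. The interaction also equals the DKO minus WT difference after IFNβ (the treated level) minus that without IFNβ (the resting level), so each gene could be assigned to the groups that carry it.

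The cells were mouse embryonic fibroblasts, cultured from the connective tissue of embryos, and every group carries the strain label C57BL/6J. WT cells were Ulk1/2+/+ and DKO cells Ulk1/2-/-, and each genotype was either left untreated or given 2500 IU/ml mouse IFNβ, with 3 arrays in each of the 4 groups. Treated and untreated cells were collected after 6 h. RNA was measured as intensity on an Illumina bead array, and levels are given as log2 of the background-corrected, quantile-normalized intensity. The labels do not say that the 3 arrays of a group came from separate cultures, so p-values measure the spread between these arrays only. They also do not say how many lines or embryos stand behind a genotype. In bulk RNA, fewer cells that express a gene and less RNA per cell cannot be told apart.

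Type I interferons bind a receptor made of Ifnar1 and Ifnar2, whose kinases Jak1 and Tyk2 activate transcription factors that include Stat2. Stat2 acts with Irf9 in the nucleus on the interferon-stimulated response element (ISRE) in the promoters of antiviral genes. Many of these genes also have a low level without added interferon, and several of their products, such as Usp18, dampen the receptor. Ulk1 and Ulk2 are kinases best known for starting autophagy, and the title of the study asks what part Ulk1 plays in type I interferon signalling.

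As a check of the labels, all 6 WT arrays detected Ulk1 and Ulk2, and 0 of 6 DKO arrays did. At rest, DKO cells had at least 3.44-fold less Ulk1 and at least 2.78-fold less Ulk2 signal. Detected probes numbered 13732 to 15240 per array, out of 45281. Median intensity split the arrays into a lower set (86.5 to 87.9 intensity units) and a higher set (97.5 to 99.7). Each WT group has 2 arrays in the lower set, and each DKO group has 1. Of 12 fibroblast markers, 11 were detected on every array, and Pdgfra on all WT arrays but no DKO array. Of 6 leukocyte markers, 5 were detected on no array and Cd3e on all 12. The summed log2 level of the fibroblast markers lay between 106.4 and 112.5 in the 4 groups. The interaction test covered the 12 fibroblast markers and, of the leukocyte markers, 1 (Cd3e), and none of these passed it. Xist, transcribed from the inactive X chromosome, was detected on 6 of 6 DKO and 0 of 6 WT arrays, and the Y-linked gene Eif2s3y on 6 of 6 WT and 0 of 6 DKO arrays. Genotype and sex of the cells cannot be told apart in these data.

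Most genes whose response to IFNβ differed had a negative interaction, and the antiviral genes among them were carried mainly by a higher resting level. In limma's test, 93 of 8898 genes (1.05%) had a Benjamini-Hochberg adjusted p under 0.05 for the interaction. Of these, 66 (0.742% of tested genes) had a negative interaction, and 27 (0.303%) a positive one. The change was smaller in size in DKO cells for 64 of the 66 and larger for 2 that fell there, while it was larger in size in DKO cells for 22 of the 27 and smaller for 5. The interaction was at least 2-fold for 66 genes, 52 negative and 14 positive. Sizes of called interactions ranged from 0.68 to 3.92 on the log2 scale, with a median size of 1.24, against a median size of 0.15 over all tested genes. For 41 of the 93, at least 1 group had no array with detection. The interaction of such a gene includes a signal not above background, and its size is therefore not exact. The median 95% confidence interval, which is not adjusted for the number of genes, extended 0.39 to either side. The adjusted threshold asked for more, and no difference smaller than 0.68 was called. At an unadjusted p under 0.05, 817 genes passed. A fit that blocks on the replicate number within each genotype called 254 genes, and one that blocks on the sets of arrays described above called 201. Each of these fits called all 93.

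**Figure D1:**
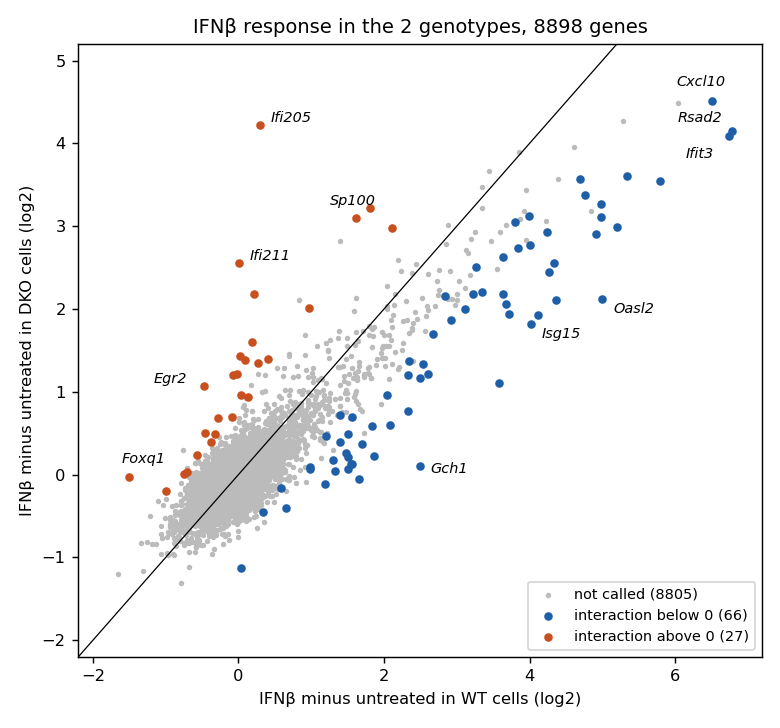
The change with IFNβ in WT cells (horizontal axis, log2) is plotted against the change in DKO cells (vertical axis, log2) for 8898 genes, with the line of equal change. The 66 genes with a called negative interaction lie below the line, most of them at strong WT rises, and the 27 with a positive one lie above it, with Ifi205 highest.

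Of the 66 genes with a negative interaction, 47 rose in both genotypes, 17 passed the test for a rise in WT cells only and 2 passed for a fall in DKO cells only. Over all tested genes, 8.08% rose in WT and 6.25% in DKO cells, while 10.7% fell in WT and 5.16% in DKO cells (18.7% and 11.4% in either direction). For 25 of the 66, only the resting level differed, and it was higher in DKO cells in all 25. For 15, only the treated level differed, and it was lower in DKO cells in all 15. A further 20 differed the same way at both levels, 9 of them higher and 11 lower in DKO cells, and 6 were higher at rest and lower after treatment. Genotype differences were frequent in the whole table. Untreated DKO cells were called higher for 15.9% and lower for 18% of tested genes (33.9% in all), and treated DKO cells for 15.3% and 16.5% (31.8%). The resting level was thus higher in DKO cells for 40 of the 66 genes and the treated level lower for 32.

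Among the 27 genes with a positive interaction, 15 passed the test for a rise in DKO cells only, 5 rose in both genotypes and 5 passed for a fall in WT cells only. The other 2, Fastkd3 and Zfp324, fell in WT and rose in DKO cells. Here the treated level carried most differences. For 9 genes only the treated level was higher in DKO cells, and 10 were higher at both levels. The resting level alone was lower in DKO cells for 4, both levels were lower for 3, and 1 was lower at rest and higher after treatment.

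**Figure D2:**
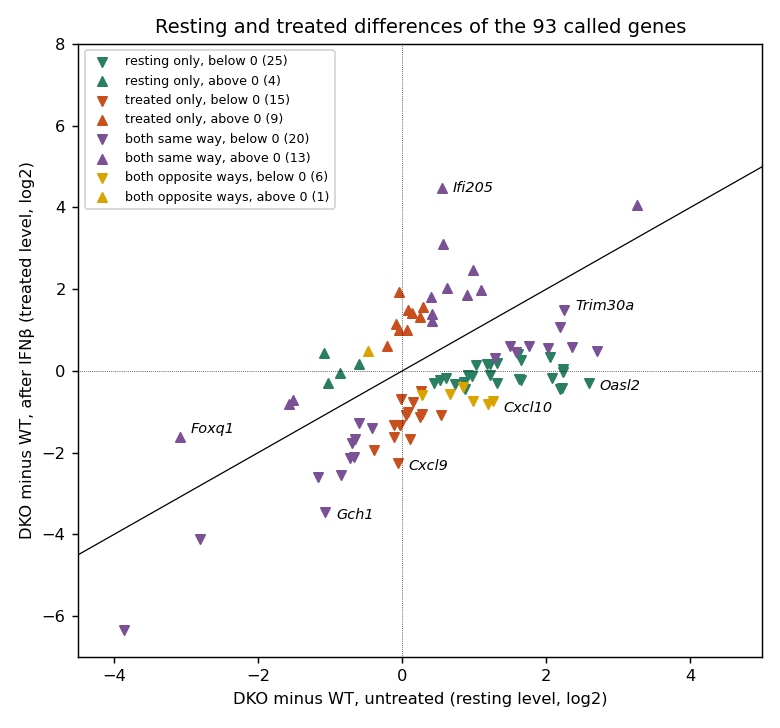
DKO minus WT differences without IFNβ (horizontal axis, log2) and after IFNβ (vertical axis, log2) are plotted for the 93 called genes, with the line on which the interaction is 0. Triangles pointing down mark negative and triangles pointing up positive interactions, and colours give the level at which the genotypes differed. Of the genes that differed at rest only, the 25 with a negative interaction lie to the right, Oasl2 among them, and the 4 with a positive one to the left, all with no called treated difference, while Cxcl9 and Gch1 lie far below it.

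Promoters of 5 genes are printed because they stand for the patterns that follow. Isg15 and Ifit3 differed at rest, Cxcl10 both ways, and Gch1 and Ifi205 mainly after treatment. Each runs 5′ to 3′ on the gene's strand from 250 bases before to 50 after the transcription start, from RefSeq on GRCm38.p6. Capitals mark matches on either strand to the ISRE core searched here, which is GAAA, any 2 bases and GAAA again. The windows are chr4:156200769-156201068 (minus strand) for Isg15, chr19:34583279-34583578 (plus) for Ifit3 and chr5:92348840-92349139 (minus) for Cxcl10. Those of Gch1 and Ifi205 are chr14:47189364-47189663 (minus) and chr1:174031706-174032005 (minus).
Isg15: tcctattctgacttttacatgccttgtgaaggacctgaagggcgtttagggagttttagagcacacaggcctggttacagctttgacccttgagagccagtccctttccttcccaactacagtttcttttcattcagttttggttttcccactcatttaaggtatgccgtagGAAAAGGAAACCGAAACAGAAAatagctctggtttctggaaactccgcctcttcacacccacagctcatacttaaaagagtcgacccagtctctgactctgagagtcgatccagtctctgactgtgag
Ifit3: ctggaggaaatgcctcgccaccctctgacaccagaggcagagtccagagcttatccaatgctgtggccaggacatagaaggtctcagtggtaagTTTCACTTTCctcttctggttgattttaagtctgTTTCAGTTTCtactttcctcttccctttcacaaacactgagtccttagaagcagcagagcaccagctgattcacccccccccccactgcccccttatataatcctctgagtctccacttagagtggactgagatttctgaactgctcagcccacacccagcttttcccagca
Cxcl10: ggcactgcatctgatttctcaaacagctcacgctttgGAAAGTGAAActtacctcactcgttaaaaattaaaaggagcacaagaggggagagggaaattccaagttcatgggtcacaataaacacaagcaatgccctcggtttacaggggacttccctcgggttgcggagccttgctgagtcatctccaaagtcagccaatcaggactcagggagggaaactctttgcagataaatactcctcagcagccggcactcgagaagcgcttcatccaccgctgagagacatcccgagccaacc
Gch1: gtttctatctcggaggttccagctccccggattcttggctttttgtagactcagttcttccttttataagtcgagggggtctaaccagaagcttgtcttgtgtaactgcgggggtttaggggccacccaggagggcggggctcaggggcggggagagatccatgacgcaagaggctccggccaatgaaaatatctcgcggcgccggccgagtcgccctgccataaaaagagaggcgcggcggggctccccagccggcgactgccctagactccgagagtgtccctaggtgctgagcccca
Ifi205: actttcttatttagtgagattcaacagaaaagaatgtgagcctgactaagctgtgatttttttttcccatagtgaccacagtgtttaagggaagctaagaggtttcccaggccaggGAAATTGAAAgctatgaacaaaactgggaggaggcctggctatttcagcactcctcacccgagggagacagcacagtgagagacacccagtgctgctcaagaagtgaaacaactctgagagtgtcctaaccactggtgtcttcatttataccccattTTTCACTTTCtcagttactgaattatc

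Isg15 has 3 overlapping matches that begin 78, 72 and 66 bases before the start, Ifit3 has 2, at 156 and 122 bases before it, and Cxcl10 has 1, at 213 bases. Gch1 has none in this window. Ifi205 has 1 at 134 bases before the start and 1 at 23 bases after it. A gene was counted if any of its RefSeq promoters of this length matched. Over all 27025 genes with such a promoter, 3.99% hold the core, and 281 of the 7273 tested genes with a promoter do (3.86%). Among genes with a negative interaction, it was found in 15 of 32 with a higher resting level in DKO cells (46.9%) and in 1 of 17 of the rest (5.88%). Among genes with a positive interaction, it was found in 4 of 21 (19%). These 4 are Ifi205, Ifi207, Ifi211 and Ifi213, all of the Ifi200 family described below, whose members are close copies. The GAS letters TTCNNNGAA read the same on both strands. They were found for 9.55% of the 27025 genes and for 8.17% of tested genes with a promoter. They were in 6 of the 32 (18.8%) and in 3 of the 17 (17.6%), which are similar shares. Of the 21 genes with a positive interaction, 1 had them (4.76%). The CRE letters TGACGTCA and the AP-1 letters TGANTCA, both strands, were found for 2.03% and 8.97% of the 27025 genes. For tested genes with a promoter the shares were 3.74% and 5.93%. They were in 0 and 6 of the 32 and in 0 and 3 of the 17 (18.8% and 17.6% for AP-1). Of the 21 genes with a positive interaction, 0 had the CRE and 0 the AP-1 letters. None of the 4 motifs contains another in full, and a match is only a run of letters.

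Most tested genes of the ubiquitin-like modifier ISG15 and of the enzymes that attach or remove it rose less in DKO cells. Of 5 tested genes of this system, 4 had a negative interaction and 0 a positive one (5 and 0 by limma's unadjusted p under 0.05), with a median of -1.70. Without background correction the 4 were still called, but the median was -0.80. All 4 were higher at rest in DKO cells with no called difference after IFNβ. Isg15, the modifier itself, read 9.96, 8.94 and 9.04 (log2 level) on the untreated WT arrays and 11.34, 11.72 and 11.56 on the untreated DKO arrays. After IFNβ it read 13.45, 13.09 and 13.44 in WT and 13.21, 13.41 and 13.46 in DKO cells. The genotypes did not overlap at rest and overlapped after treatment. Isg15 rose 16.2-fold in WT and 3.54-fold in DKO cells, an interaction of -2.19 ± 0.31 (SE, n = 3 per group, limma adjusted p = 0.0018).

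Usp18, the protease that removes ISG15 and also restrains the interferon receptor, showed the same arrangement. Its untreated levels were 9.50, 8.57 and 8.39 in WT and 11.28, 11.02 and 10.83 in DKO cells, against 13.20, 13.21 and 13.16 and 13.14, 13.11 and 13.21 after IFNβ. It was 4.67-fold higher in DKO cells at rest and differed by -0.03 ± 0.22 (log2) after treatment (limma adjusted p = 0.93). The interaction was -2.26 ± 0.31 (adjusted p = 0.0013), and a second probe gave -1.95, also called. Uba7, the activating enzyme of ISG15, rose 31.5-fold in WT and 9.66-fold in DKO cells (interaction -1.70). Ube2l6, its conjugating enzyme, rose 14.3-fold and 6.65-fold (-1.10). A second probe of Ube2l6 gave -1.09, not called (limma adjusted p = 0.069).

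In the 3 lists of enzymes and proteins that act on viral RNA or block viral growth, all called interactions were negative. Of 7 tested oligoadenylate synthetases and relatives, which sense double-stranded RNA, 5 were called (median -1.12 over the 7). Of 3 IFIT genes, which bind viral RNA, 2 were called (median -0.87), and of 16 blockers of viral entry and replication, 5 were called (median -0.66). Without background correction the first 2 medians were -0.47 and -0.51, with 4 and 1 called. For the blockers of entry and replication, the median was then -0.42, and fits that left out 1 array called 3 to 7, the 7 without untreated WT replicate 1. Array weights called 9 of the 16 and the replicate block within genotype 8, while 0 of the 9 with detection on all 12 arrays were called. Oasl2 had the lowest interaction of all tested genes, -2.87 ± 0.38 (limma adjusted p = 0.0013). Its other probes gave smaller values, -1.23, called, and -0.53, not called. By the probe used, Oasl2 read 7.74, 6.37 and 6.66 (log2 level) in untreated WT cells and 9.77, 9.60 and 9.15 in untreated DKO cells. After IFNβ it read 11.86, 11.90 and 12.00 in WT and 11.44, 11.65 and 11.81 in DKO cells, where every DKO value lay below every WT value but the difference did not pass (-0.29 ± 0.27, adjusted p = 0.46).

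Ifit3, an IFIT protein, rose 106.8-fold in WT and 17.02-fold in DKO cells. Untreated levels were 7.59, 6.36 and 6.43 in WT and 9.43, 9.02 and 8.59 in DKO cells, and treated levels 13.52, 13.63 and 13.45 against 13.20, 13.08 and 13.02. The groups were apart at rest by 2.22 ± 0.27 (limma adjusted p = 2.4e-05) and after treatment by -0.43 ± 0.27 (adjusted p = 0.25), for an interaction of -2.65 ± 0.38. A second probe of Ifit3 gave -1.84, also called.

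Rsad2 encodes viperin, which blocks viral genome synthesis, and its neighbour Cmpk2 a mitochondrial nucleotide kinase. Rsad2 read 5.96, 4.77 and 5.18 in untreated WT cells, detected on 2 of 3 arrays, and 7.74, 7.57 and 7.15 in untreated DKO cells. After IFNβ the values were 12.14, 12.19 and 11.91 in WT and 11.84, 11.62 and 11.46 in DKO cells. The interaction was -2.63 ± 0.34 for Rsad2 (limma adjusted p = 0.0011) and -2.25 ± 0.24 for Cmpk2 (adjusted p = 2.4e-04), both with a resting difference only. The GTPase Mx2 (-1.38), Ifit2 (-0.87), the RNA synthetase Oas2 (-1.12) and the RNA-activated kinase Eif2ak2 (-1.20) were also called and differed at rest only. A second probe of Ifit2 gave -0.72, not called. The call of Oas2 was lost in 7 and that of Eif2ak2 in 8 of 12 fits that each left out 1 array (highest adjusted p = 0.072 and 0.14).

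Oasl1 and Oas1g stayed higher in DKO cells after IFNβ as well. Oasl1, a regulator of Irf7 translation in mice, was 6.53-fold higher at rest and 1.41-fold higher after treatment, and its interaction was -2.21 ± 0.24 (limma adjusted p = 2.4e-04). Oas1g was 5.13-fold and 1.49-fold higher (interaction -1.78). For both, other probes gave smaller values. Those of Oasl1 gave -1.51, called, and -0.06, not called, and those of Oas1g -0.24, -1.50 and -0.24, none called. Oas1 genes are close copies of each other, and their probes were not compared by sequence.

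Some of the GTPases that act on the vacuoles of intracellular pathogens rose less in DKO cells, and 2 of these were lower after treatment as well. Of 11 tested members, 4 were called, all negative, with a median of -1.15 (10 negative and 1, Tgtp1, positive by limma's unadjusted p under 0.05). The count depended on the fit. It was 2 without treated WT replicate 1 or treated DKO replicate 3, 7 without untreated WT replicate 1, 8 with an offset of 50 and 10 with the replicate block within genotype. Igtp, an immunity-related GTPase, read 7.43, 6.16 and 6.53 in untreated WT and 8.39, 7.72 and 7.60 in untreated DKO cells. After IFNβ the order turned, with 11.83, 11.57 and 11.47 in WT and 11.03, 10.72 and 10.68 in DKO cells, and the groups did not overlap at either level. Its interaction was -2.01 ± 0.38 (limma adjusted p = 0.018), a call lost in 4 of 12 fits that left out 1 array (highest adjusted p = 0.069). Ifi47, of the same family, was 1.97-fold higher at rest and 1.68-fold lower after treatment in DKO cells (interaction -1.73). Irgm2 differed at rest only (3.06-fold higher, interaction -1.82). Gvin1, a very large GTPase, was higher in DKO cells at both levels (-1.12), while a second probe gave 0.08, and the call was lost in 8 of 12 fits without 1 array (highest adjusted p = 0.11).

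Antigen presentation genes seldom passed the test, except with the replicate block. Of 22 tested genes of MHC class I, peptide loading and the immunoproteasome, 2 were called, both negative, with a median of -0.55 and 20 of 22 below 0. With the replicate block within genotype 10 were called, all negative, among them B2m (-0.71), the light chain of MHC class I, and Psmb9 (-0.82), a catalytic subunit of the immunoproteasome. Without untreated WT replicate 1, 5 were called, and without any 1 of the other arrays 1 or 2. Tap1, a subunit of the peptide transporter, was detected on no untreated WT array and rose at least 14.3-fold in WT and 6.85-fold in DKO cells (interaction -1.23). It was at least 1.41-fold higher at rest and 1.48-fold lower after treatment in DKO cells. Cd274, which encodes the T cell inhibitor PD-L1, had an interaction of -0.75, lost in 10 of 12 fits without 1 array (highest adjusted p = 0.11). Tap2, the partner of Tap1, rose 10.2-fold in WT and 11.1-fold in DKO cells, with an interaction of 0.13 (95% confidence interval -0.32 to 0.59).

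The next lists are both smaller. Of 6 PARP and partner genes, 2 were called with a resting difference only, the ADP-ribosyltransferase Parp14 (-1.87) and the ubiquitin ligase Dtx3l (-1.14). Other probes of Parp14 gave 0.00 and -0.33 and that of Dtx3l -0.15, none called. Of 7 genes of nuclear bodies and TRIM proteins, Trim21, an antibody receptor in the cytosol (-1.06), and Trim30a (-0.75) were called negative and Sp100 positive. Another probe of Trim21 gave -0.47, not called. Trim30a was at least 3.22-fold higher at rest and 2.82-fold higher after treatment in DKO cells. Its interaction turned positive without background correction (0.31), and its call was lost in 9 of 12 fits that left out 1 array (highest adjusted p = 0.15).

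**Figure D3:**
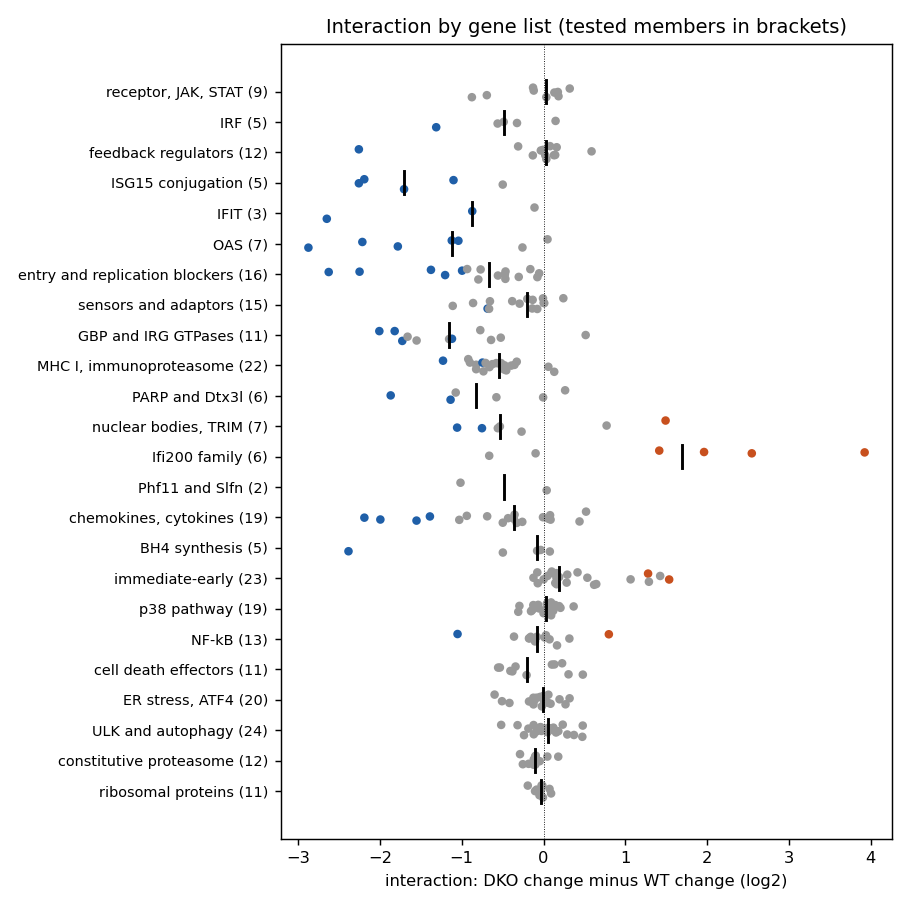
Each point is the interaction (log2, horizontal axis) of 1 tested gene, with the lists as rows on the vertical axis, blue where called negative, orange where called positive and grey where not called, and the bar is the list median. The medians of the ISG15, OAS, IFIT and GTPase lists lie to the left of 0, with Tgtp1 and Oas1c to the right of it, and that of the Ifi200 family to the right, with 2 of its 6 members to the left, while the receptor, p38, autophagy, proteasome and ribosomal medians lie near 0.

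The lists of ISG15 conjugation, IFIT, OAS, entry and replication blockers, GTPases, antigen presentation and PARP genes were pooled. These 7 lists held 70 tested genes, of which 24 had a called negative and 0 a called positive interaction. Over all tested genes, 0.742% were called negative and 0.303% positive. With the nuclear body list added there were 77 genes, 26 called negative and 1 positive, and with the Ifi200 family as well 83, 26 negative and 5 positive. The values that follow are for the 70 genes. By limma's unadjusted p under 0.05, 52 of the 70 were negative and 1 positive, against 442 and 375 of all 8898 tested genes. All 24 called genes were higher at rest in DKO cells. There, 39 of the 70 were called higher and 2 lower, against 15.9% and 18% of all tested genes. After IFNβ, 18 of the 24 had no called difference, 3 were lower and 3 higher in DKO cells. The medians over the 70 genes were 2.88 for the WT change, 2.12 for the DKO change and -0.76 for the interaction (log2), against 0.01 for the interaction over all tested genes. The median resting difference was 0.54 and the median treated difference -0.16.

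Of the 3 untreated WT arrays, 1 stood apart in these genes. Replicate 1 was the highest of the 3 untreated WT arrays for 21 of the 24 genes (87.5%), and over all tested genes for 34.8%. The gap to the next array was 1.17 (log2 level) for Ifit3, 0.93 for Isg15 and 0.78 for Rsad2. The other groups were not counted in this way. In untreated DKO cells, replicate 1 was also the highest for Ifit3 (9.43) and Rsad2 (7.74) but the lowest for Isg15 (11.34). Without untreated WT replicate 1, 105 interactions were called, 80 negative and 25 positive. Without untreated WT replicate 2, 65 were called, 48 negative and 17 positive.

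Treated levels of some of these genes were close to the top of the scale. Isg15 reached 13.46, and the highest normalized value of any probe was 14.66. Among called genes, 5 had a treated WT mean and 3 a treated DKO mean in the highest 1% of tested genes. A fold depends on the level it starts from, so the increments were also taken on the linear scale, a comparison added after the data were seen. The increment in intensity units was smaller in DKO cells for 56 and larger for 10 of the 66 genes with a negative interaction. For Isg15 it was 9673 in WT and 7572 in DKO cells, and for Cxcl10 10221 and 5882. Genes with a larger increment in DKO cells included Oasl1 (912 in WT and 1153 in DKO cells) and Uba7 (1401 and 1645). For all 27 genes with a positive interaction the increment was larger in DKO cells.

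The chemokines with a called interaction were all lower in treated DKO cells. Of 19 tested chemokines and cytokines, 4 had a negative and 0 a positive called interaction, with a median of -0.36 (7 and 2 by limma's unadjusted p under 0.05). Over the 19, the treated level was called lower in DKO cells for 12 and higher for 1, and the resting level lower for 8 and higher for 2. Without background correction 5 were called and the median was -0.17. Cxcl9, which attracts activated T cells, was detected on no untreated array, at 4.38, 4.40 and 4.35 in WT and 4.40, 4.28 and 4.25 in DKO cells. After IFNβ it read 8.81, 8.21 and 8.47 in WT and 6.59, 6.38 and 5.75 in DKO cells, without overlap. It rose at least 12.0-fold in WT and at least 2.61-fold in DKO cells and was 4.78-fold lower in treated DKO cells (interaction -2.19 ± 0.26, limma adjusted p = 5.9e-04). A resting difference below the limit of detection could not be seen, so the size of the interaction of Cxcl9 was not measurable.

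Ccl2 and Ccl7, which attract monocytes, had no called resting difference. Ccl2 read 7.41, 6.84 and 7.41 in untreated WT and 6.61, 7.21 and 6.68 in untreated DKO cells, which overlap, and 9.49, 9.24 and 9.91 against 7.32, 7.91 and 7.59 after IFNβ, which do not. Its interaction was -1.55 ± 0.31 (limma adjusted p = 0.024), a call lost in 6 of 12 fits that left out 1 array (highest adjusted p = 0.075). Ccl7 rose 6.06-fold in WT and 2.32-fold in DKO cells (interaction -1.39, adjusted p = 0.0073), and a second probe gave -1.10 (adjusted p = 0.051).

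Cxcl10, another attractant of T cells, was carried by both levels. It read 7.33, 6.68 and 6.44 in untreated WT and 8.37, 8.01 and 7.83 in untreated DKO cells, and 13.22, 13.58 and 13.18 against 12.61, 12.49 and 12.66 after IFNβ. DKO cells thus had the higher level at rest (2.39-fold) and the lower level after treatment (1.67-fold). The interaction was -1.99 ± 0.28 (limma adjusted p = 0.0020), while a second probe gave -1.26, not called (adjusted p = 0.45). Tgm2, a transglutaminase, had the same arrangement (interaction -1.24).

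**Figure D4:**
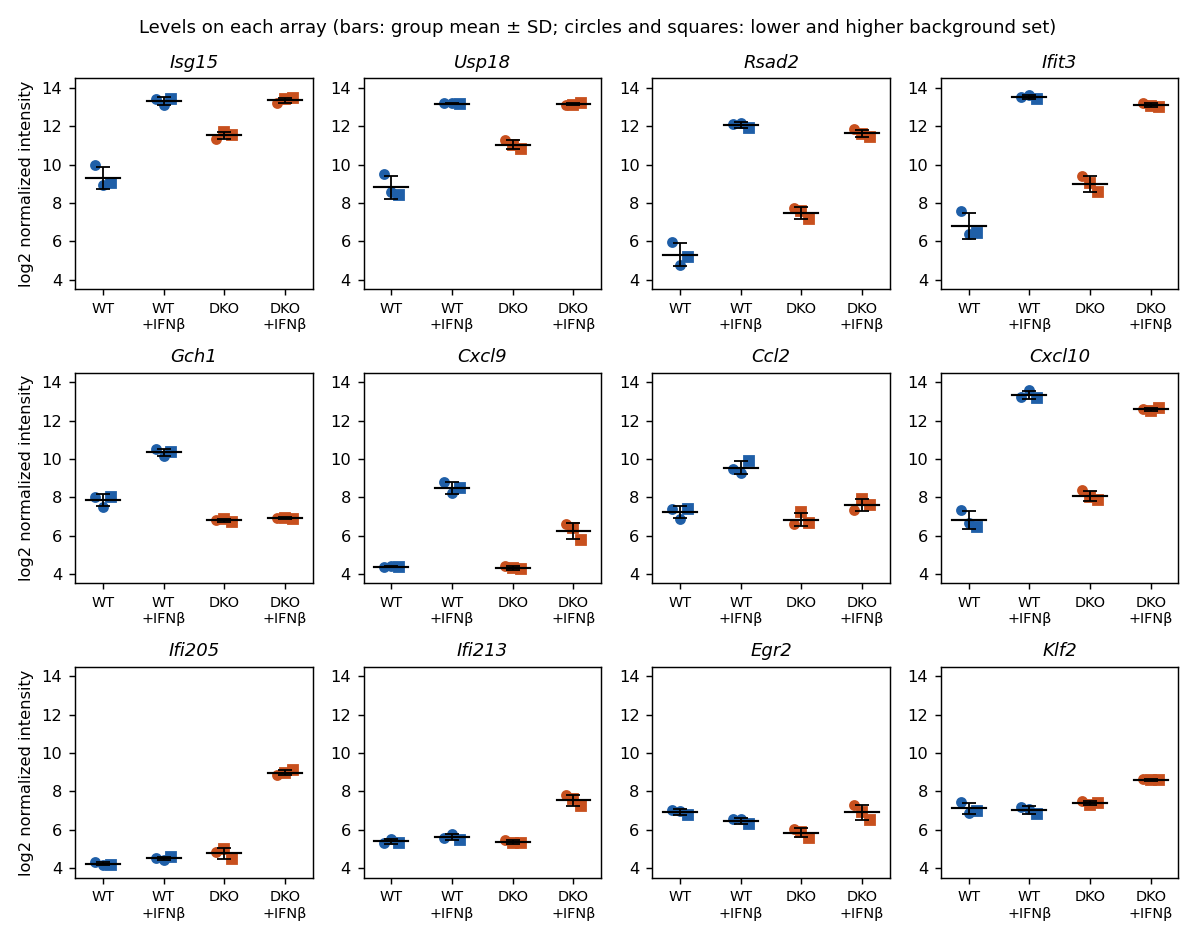
Levels (log2 normalized intensity, vertical axis) of 12 genes on each array are shown by group, with bars for the mean ± SD of 3 arrays, circles for arrays of the lower and squares for arrays of the higher background set. Isg15, Usp18, Rsad2 and Ifit3 differ between the untreated groups, Gch1, Cxcl9 and Ccl2 between the treated groups, and Ifi205 and Ifi213 are high only in treated DKO cells.

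A further group of genes responded in WT cells while no rise passed the test in DKO cells. Gch1, the rate-limiting enzyme of tetrahydrobiopterin synthesis, read 8.03, 7.52 and 8.03 in untreated WT and 10.52, 10.15 and 10.38 in treated WT cells. In DKO cells it read 6.84, 6.84 and 6.69 untreated and 6.92, 6.93 and 6.84 treated, below every WT array. The change was 2.49 ± 0.14 in WT and 0.11 ± 0.14 (log2) in DKO cells, and the interaction -2.38 ± 0.20 (limma adjusted p = 3.9e-05). A second, dimmer probe, detected on 4 arrays, gave -0.94 (adjusted p = 0.10). None of the other 4 tested genes of this pathway was called.

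Elmo1, a partner of Rac activators in cell engulfment, and Thbd, the thrombin receptor thrombomodulin, were detected on no DKO array. Elmo1 read 5.40, 4.98 and 5.02 in untreated WT and 7.03, 6.68 and 6.65 in treated WT cells, and between 4.20 and 4.30 on the DKO arrays. It was at least 3.57-fold and Thbd at least 4.21-fold lower in treated DKO than in treated WT cells, with interactions of -1.70 and -1.43. At rest the differences were at least 1.21-fold and 1.52-fold, and with no measured level in DKO cells a rise below the limit of detection, even one as large in fold as in WT cells, could not be seen there. The other 13 probes that name Elmo1 stayed below the detection filter. Unc93b1, which carries endosomal Toll-like receptors, was also detected on no DKO array (interaction -1.44, with the same limit), and its call was lost in 8 of 12 fits without 1 array (highest adjusted p = 0.076).

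Nfkbia, the inhibitor of NF-kB, rose 1.57-fold in WT cells and did not pass the test in DKO cells (change -0.40 ± 0.12, limma adjusted p = 0.052). It was lower in DKO cells at rest and after treatment, and its interaction was -1.05 (adjusted p = 0.0064). A second probe of Nfkbia, detected on all 12 arrays, gave -0.66, not called (limma adjusted p = 0.69). Tlr3, an endosomal receptor for double-stranded RNA, was detected on no untreated array and rose at least 4.70-fold in WT and at least 3.00-fold in DKO cells. Its interaction of -0.68 was called alone among 15 tested sensors and adaptors and was lost in 10 of 12 fits without 1 array (highest adjusted p = 0.13). As for Cxcl9, the size of this interaction was not measurable, because a resting difference below the limit of detection could not be seen. Etl4 rose 3.62-fold in WT cells, and its change in DKO cells did not pass (0.23 ± 0.21). Its interaction was -1.63 (limma adjusted p = 0.015), a call lost in 3 of 12 fits without 1 array (highest adjusted p = 0.057).

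Most tested members of the Ifi200 family had the opposite sign. These genes, clustered on chromosome 1, encode interferon-inducible proteins with domains that bind DNA. Of 6 tested members, 4 had a called positive and 0 a called negative interaction, with a median of 1.69 (4 and 1 by limma's unadjusted p under 0.05). The other members were Ifi204 and Ifi202b. Ifi202b rose in both genotypes, with an interaction of -0.66 (limma adjusted p = 0.41) and a level lower by 0.90 (log2) in treated DKO cells (adjusted p = 0.0019). Ifi205 was detected on no WT array, with 4.31, 4.18 and 4.16 untreated and 4.54, 4.43 and 4.57 treated. In DKO cells it read 4.82, 5.02 and 4.46 untreated, detected on 1 array, and 8.85, 8.99 and 9.12 after IFNβ. It was at least 16.4-fold higher in treated DKO than in treated WT cells, with the highest interaction value of all tested genes, 3.92 ± 0.19 (limma adjusted p = 8.6e-08). With no measured level in WT cells, a rise below the limit of detection could not be seen there. The size of this interaction was therefore not measurable.

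Ifi211 was likewise detected on no WT array and was at least 5.53-fold higher in treated DKO cells (interaction 2.55 ± 0.16, limma adjusted p = 1.3e-06, with the same limit). Ifi213 was detected on every array and its resting levels overlapped, with 5.34, 5.54 and 5.33 in WT and 5.47, 5.31 and 5.30 in DKO cells. It read 5.57, 5.79 and 5.49 in treated WT and 7.80, 7.59 and 7.22 in treated DKO cells (interaction 1.96 ± 0.20). Ifi207 rose at least 2.54-fold in WT and 9.35-fold in DKO cells (interaction 1.41).

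Other probes of this family did not all give the same picture. Those of Ifi205 gave 2.35, called, and 0.72, not called (adjusted p = 0.33), and that of Ifi213 gave 1.50, called. Ifi204 rose 4.12-fold in DKO and at least 3.28-fold in WT cells with an interaction of -0.10 (95% confidence interval -0.46 to 0.26), but a dimmer probe of it gave 1.23, called. The members are close copies of one another, and probe sequences were not compared, so which member a probe reports is uncertain.

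Sp100, a nuclear body protein also encoded on chromosome 1, read 4.44, 4.41 and 4.40 in untreated WT, where it was not detected, and 6.07, 6.00 and 6.01 in treated WT cells. In DKO cells it read 5.65, 5.21 and 5.32 untreated and 8.34, 8.53 and 8.61 treated, above the WT arrays at both levels. It rose at least 2.17-fold in WT and 8.58-fold in DKO cells, and the interaction was 1.49 ± 0.17 (limma adjusted p = 3.3e-04).

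Immediate-early genes, many of them transcription factors, rose after IFNβ in DKO cells for 11 of 23 tested and in WT cells for 7. Over all tested genes, 6.25% rose in DKO and 8.08% in WT cells. Of the 23 genes, 2 had a called positive and 0 a called negative interaction, against 0.303% and 0.742% of all tested genes. The median was 0.19. By limma's unadjusted p under 0.05, 8 of the 23 were positive and 0 negative, against 375 and 442 of all 8898 tested genes. Egr2 read 7.05, 6.97 and 6.77 in untreated and 6.54, 6.56 and 6.28 in treated WT cells, and 6.03, 5.90 and 5.58 against 7.31, 6.91 and 6.49 in DKO cells. It was 2.13-fold lower in DKO cells at rest and rose 2.10-fold there, with no called change in WT cells (-0.47 ± 0.18, limma adjusted p = 0.090), an interaction of 1.54 ± 0.26 (adjusted p = 0.0064).

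Klf2, a factor known from quiescent T cells and endothelium, had no called resting difference and was 2.95-fold higher after treatment. It read 7.46, 6.88 and 6.99 in untreated and 7.18, 7.09 and 6.82 in treated WT cells, and 7.50, 7.29 and 7.40 against 8.63, 8.58 and 8.57 in DKO cells. The 3 treated DKO arrays were higher than the other 9 (interaction 1.28 ± 0.20, limma adjusted p = 0.0044).

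Some positive interactions came from a fall in WT cells. Foxq1, a forkhead factor, read 7.31, 7.52 and 7.63 in untreated and 5.90, 6.31 and 5.72 in treated WT cells, and was detected on no DKO array. It fell 2.84-fold in WT cells (interaction 1.48, limma adjusted p = 0.0014), and with no measured level in DKO cells a fall could not be seen there. Traf1, an adaptor of TNF receptors, fell 1.99-fold in WT cells and was also detected on no DKO array (0.80), and Pla2g4b, a phospholipase, fell 1.48-fold in WT cells (0.80). These last calls were lost in 9 of 12 fits each without 1 array (highest adjusted p = 0.091 for Traf1 and 0.084 for Pla2g4b).

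Fastkd3 and Zfp324 were the genes that passed in opposite directions. Fastkd3, which acts on mitochondrial RNA, fell by 0.38 in WT and rose by 0.39 (log2) in DKO cells, an interaction of 0.77 that was lost in 10 of 12 fits without 1 array (highest adjusted p = 0.11). Zfp324, a zinc finger protein, was detected on all 3 untreated WT and all 3 treated DKO arrays and on no other array. Its levels of 4.54 to 5.26 lay near the limit of detection (interaction 0.96, limma adjusted p = 0.0032).

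Among smaller positive interactions, Bhlhb9 and Taf9b, a subunit of transcription initiation complexes, lie on the X chromosome (0.96 and 0.82), and the secreted hormone Stc2 gave 0.82. The calls of Taf9b and Stc2 were lost in 7 and 11 of 12 fits without 1 array (highest adjusted p = 0.093 and 0.080). The genes that passed for a fall in DKO cells only, Zcchc18 (interaction -1.17) and the vesicle-tethering subunit Trappc2 (-0.79), are X-linked as well. Zcchc18 was detected on no WT array, so a fall in WT cells could not be seen and the size of its interaction was not measurable. The call of Trappc2 was lost in 11 of 12 fits (highest adjusted p = 0.11). The part of the sex of the cells in these 4 X-linked results was not tested.

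No interaction passed among 9 tested genes of the receptors and the kinases and factors downstream of them, whose median was 0.03 (2 negative and 0 positive by limma's unadjusted p under 0.05). Ifnar2 (0.03, 95% confidence interval -0.32 to 0.39), Jak1 (-0.13, -0.68 to 0.42) and Tyk2 (0.13, -0.22 to 0.49) lay around 0. Irf9, the DNA-binding partner of Stat2, just missed the threshold, with an interaction of -0.88 ± 0.19 (limma adjusted p = 0.0503, and 0.0070 with the replicate block within genotype). It was 1.77-fold higher in untreated DKO cells, and the interaction passed without untreated WT replicate 1 (adjusted p = 0.0079) or untreated DKO replicate 3 (0.040). Stat2 had an interaction of -0.69 ± 0.17 (adjusted p = 0.089) and was at least 1.17-fold higher at rest. Ifnar1 was below the detection filter.

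Of 5 tested interferon regulatory factors, Irf7, which amplifies the response, was called (-1.31 ± 0.26, limma adjusted p = 0.026) and differed at rest only. Its call was lost in 8 of 12 fits without 1 array (highest adjusted p = 0.090). Irf1 had an interaction of -0.56 (adjusted p = 0.36) and was 1.59-fold lower in treated DKO cells. Of 12 feedback regulators, Usp18 alone was called, and the median was 0.03.

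Several other lists gave no called interaction. These were 19 genes of the p38 pathway (median 0.03), 24 of autophagy and the ULK complex (0.05), 20 of ER stress and ATF4 (-0.01), 11 of cell death (-0.21), 12 of the constitutive proteasome (-0.10), 11 ribosomal proteins (-0.04) and 2 of Phf11 and Schlafen (-0.49). With the replicate block within genotype, Daxx of the cell death list (-0.53) and Gabarap of the autophagy list (-0.52) were called. By limma's unadjusted p under 0.05, 0 genes of the p38, constitutive proteasome and ribosomal lists passed, 4 of the cell death list, 4 of the ER stress list, 3 of the autophagy list and 1 of the Phf11 list. Phf11d rose in both genotypes, was 1.87-fold lower in treated DKO cells (limma adjusted p = 0.0062) and had an interaction of -1.01 ± 0.31 (adjusted p = 0.22). It passed without untreated WT replicate 1 (adjusted p = 0.0046) and in none of the 11 fits without another array (highest adjusted p = 0.45). Mapk14, the p38 kinase, had an interaction of -0.06 (95% confidence interval -0.39 to 0.28).

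Strong induction did not always come with an interaction. With predicted, clone and accession-like symbols left out, at least a 4-fold rise in both genotypes was seen for 75 genes. Of these, 28 had a called interaction. Among the others, Phf11a rose at least 9.61-fold in WT and at least 11.4-fold in DKO cells, and Mpeg1, a pore-forming protein of phagocytes, at least 7.02-fold and at least 6.63-fold. Both were detected on no untreated array, so, as for Cxcl9 and Tlr3, the sizes of their interactions were not measurable. The nuclease Isg20 rose 7.23-fold and 6.87-fold (-0.08, -0.55 to 0.40) and was higher in DKO cells by similar amounts at rest (1.72-fold) and after treatment (1.63-fold). Sdcbp2 rose 5.40-fold and 5.82-fold (0.11, -0.31 to 0.53), Pnpla7 5.22-fold and 5.42-fold (0.05, -0.35 to 0.46), and Vwa5a 4.46-fold and 4.55-fold (0.03, -0.41 to 0.47).

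Because the background sets hold the genotypes unevenly, the interaction was also computed within each set of 6 arrays. Within a set, 1 genotype has a single array in each of its groups, and the 93 genes were called on the same 12 arrays, so these values are a description. The value within a set was 0.64 to 1.40 times the pooled one. For Isg15 it was -1.94 in the lower and -2.61 in the higher set, for Gch1 -2.48 and -2.23, and for Ifi205 3.79 and 3.91.

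**Figure D5:**
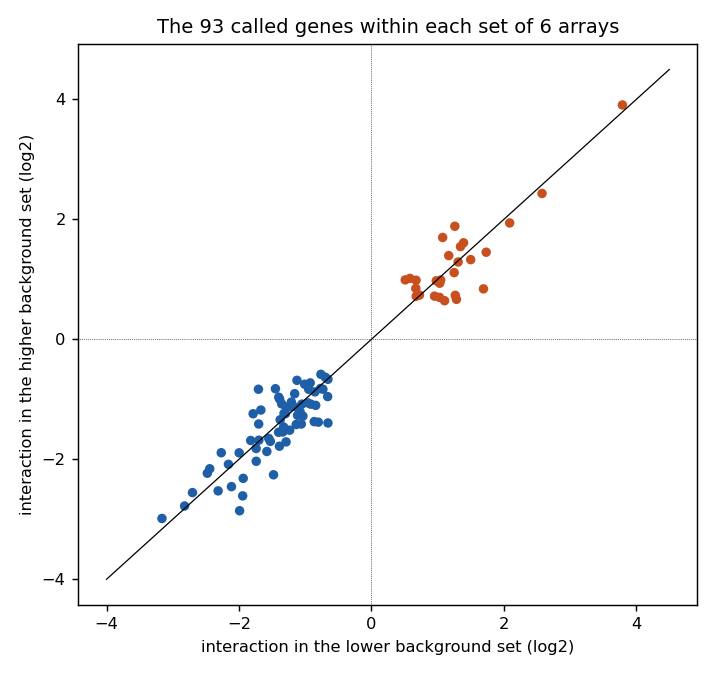
The interaction (log2) computed from the 6 arrays of the lower background set (horizontal axis) is plotted against that from the 6 arrays of the higher set (vertical axis) for the 93 called genes. Points lie along the line of equality, and the genes were chosen on the same arrays.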

How the data were processed

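As deposited, intensity is on a linear scale, 1 value for each probe on each array, and carries no normalization, per the file headers and the unequal array medians. A detection p-value, also deposited, sets each value against the negative control probes of its array, in steps of 1 in 936. The authors' deposited log2 table has equal quantiles on every array and follows log2 of the raw intensity, and it served as an alternative. The sources used here do not name the software behind these files.

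Intensities were corrected with normexp fitted from the detection p-values (offset 16), quantile-normalized and put on the log2 scale with limma 3.58.1 (function neqc, run under R 4.3.3, with package data.table at version 1.17.8). Of 45281 probes, 34885 name 1 gene by the platform annotation, 18 several and 10378 none. Entrez identifiers of 34807 probes matched those of the gene reference. The filter asked for a detection p under 0.01 on 3 or more arrays (15856 probes, of which 13737 named), and each gene was read from its brightest probe. A limma fit of 4 group means over the 12 arrays, moderated with eBayes (8 residual and 5.56 prior degrees of freedom), gave all contrasts, with Benjamini-Hochberg adjustment over 8898 genes and a threshold of 0.05. The same fit gave resting, treated and IFNβ differences, so comparisons share arrays. Where a group had no array with detection, folds are lower bounds against the lowest detected signal of each dim array, or the probe's own signal where that was higher. The procedure was tested on simulated data.

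Same-numbered arrays of a genotype, which always lie in the same background set, correlated at 0.34 to 0.64 after group means were removed, and other numbers of that genotype and set at 0.06 to 0.25. Across genotypes the ranges within a set were 0.34 to 0.45 and 0.31 to 0.43. The replicate number, taken from the titles, was therefore read as a pairing within a genotype. The main fit, planned without blocks, did not use this pairing, and genes it did not call may pass with it. The fit with the replicate block within genotype, which did use it, called 254 genes against 93. The alternatives changed background correction, offset, normalization, filter, probe summary, blocks and array weights, or left out 1 array.

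The members and gene lists were chosen with earlier results of these data known. Genes are named by fixed rules: the largest interactions of each sign, with and without detection in each group, up to 4 called members of each list, leading genes of each resting or treated pattern, called genes that IFNβ lowered, strongly induced genes with the smallest interaction, and pathway components. Predicted, clone and accession-like symbols were skipped, which left out the called AA467197 (interaction -2.48), Gm12250 (-1.78) and Gm14137 (-1.30). This took 83 genes. Markers, list members called only with the block, Tgtp1, Oas1c, Ifi202b and other probes stand outside it and were chosen after their values were seen.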

Additional observations from a re-analysis of the deposited data

Results flagged for a closer look

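The IFNβ change differed between the genotypes, by limma's interaction test, for 93 genes, 66 with a negative and 27 with a positive interaction, the DKO minus the WT change (adjusted p under 0.05). For Fastkd3 (interaction 0.77) and Zfp324 (0.96) the change passed in opposite directions, down in WT and up in DKO cells. Among 2119 kept probes that the annotation ties to no gene, which entered no comparison above, 19 had a called interaction (0.897%), 11 negative and 8 positive. Their genes were not identified here.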

How the results depend on the processing

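Of the 93 called genes, 93 kept their sign in every fit on the same probes except those without background correction or with an offset of 50, where Trim30a turned positive (0.31 in the uncorrected intensities and in the authors' table, 0.085 with offset 50). Without correction, as in the authors' table, 32 interactions were at least 2-fold and 54 smaller rises had a lower treated level in DKO cells. With offset 50 these were 41 and 50. Probes detected on all 12 arrays gave 43 calls (35 negative, 8 positive, 31 at least 2-fold), with 25 of the negative ones higher at rest and 15 lower after treatment, from fewer genes. With the replicate block within genotype there were 254 calls (178 and 76), 100 higher at rest and 80 lower after treatment, and with the replicate block across the 4 groups 153 (110 and 43), 67 and 60. The background set as a block gave 201 (137 and 64), 83 and 69, and array weights 161 (115 and 46), 73 and 61. In each set of 6 arrays 1 genotype has a single array per group, assumed to vary like the other genotype. The lower set alone gave 28 (20 and 8), all 28 at least 2-fold, 11 higher at rest and 11 lower after treatment. The higher set alone gave 54 (43 and 11), 18 of them lower after treatment. Leaving out 1 array in turn gave 65 to 105 calls, 48 to 80 negative and 17 to 28 positive, 56 to 80 at least 2-fold, 28 to 52 higher at rest and 23 to 36 lower after treatment. The count of 17 came without untreated replicate 2 of either genotype. The interaction of Ifi204 was 0.57 and called with the mean of a gene's probes (limma adjusted p = 0.021). Tlr3 alone was called among the sensors and adaptors, while 5 were called without background correction or with offset 50 and 3 with the replicate block. Median scaling, cyclic loess, no filter and the mean of probes kept the counts over all genes within 1.5 times. The causes of these shifts were not tested.

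The 3 arrays of a group limit every value. Of the 93 genes, 41 were undetected on every array of at least 1 group, where folds are bounds. Other kept probes of the called genes named here gave the same call in 7 and no call in 17 comparisons, so a value can depend on the probe. Separate cultures are not stated, and genotype goes with the sex of the cells.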
